A study of Mus musculus with 3 samples.

Results

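The 6 genes described here, *Mmp8*, *Mmp9*, *Mmp25*, *Retnlg*, *Adam8* and *Clec4d*, were taken by name as genes of the gelatinase (tertiary) granule and of late neutrophil maturation, out of 27998 genes counted. They were followed in 3 single-cell RNA libraries of CD133+ cells sorted from the bone marrow of C57BL/6 mice, made with the 10x Chromium 3′ v2 kit, in which each captured mRNA molecule carries a unique molecular identifier (UMI). The young library came from 3-month-old mice, the control library (titled Ctrl) carries the same age of 3 months, and the old library is labelled 27 months, whereas the series' design text gives 18.5 months. Each library pooled the cells of 3 mice. No treatment or allele is named for any of the libraries, the design text calls the cells intestinal where the labels say bone marrow, and what distinguishes control from young is not stated in the labels. Each condition is therefore 1 library, no test between conditions can be made, and all intervals are exact 95% intervals that cover counting error only.

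Neutrophils fill their granules in a fixed order while they mature in the marrow. Promyelocytes make azurophil granules with myeloperoxidase (*Mpo*), myelocytes and metamyelocytes make specific granules with lactoferrin (*Ltf*), and gelatinase granules follow in band cells and early segmented cells, after division has ended. Gelatinase granules are released easily, and their enzymes help the cell to cross basement membranes. Of the members, *Mmp8* codes for neutrophil collagenase, *Mmp9* for gelatinase B, *Mmp25* for the membrane-anchored leukolysin, *Adam8* for a membrane metalloprotease that sheds surface proteins, *Retnlg* for resistin-like gamma, a small secreted protein of late neutrophils, and *Clec4d* for a C-type lectin receptor (MCL) on myeloid cells that recognises mycobacterial glycolipid.

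The 6 genes lie on 6 chromosomes of mm10 (GENCODE M21 positions). *Mmp9* lies on chromosome 2 from 164940780 to 164955850, *Clec4d* on chromosome 6 from 123262111 to 123275265, *Mmp8* on chromosome 9 from 7558456 to 7568485 and *Retnlg* on chromosome 16 from 48872621 to 48874496, all on the forward strand and none overlapped by another annotated gene. *Adam8* (chromosome 7, 139978932 to 139992562) and *Mmp25* (chromosome 17, 23628311 to 23645277) lie on the reverse strand, and both are overlapped by genes of the other strand, with *Mir7062* on the same strand within *Adam8*. Whether the counting used the strand was not stated, so reads of these partners could be part of the *Adam8* and *Mmp25* counts.

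RefSeq promoter sequences of build GRCm38.p6 matched 5 of the 6 members, all but *Mmp9*. The 250 bases before the start are shown for the 3 members whose patterns differ most below, *Mmp8*, *Retnlg* and *Clec4d*, 5′ to 3′ on the gene's own (forward) strand. Capitals mark matches on either strand to TTGCNNAA, the core letters bound by C/EBP factors, which drive granule genes, or to AGGAAGT, the core letters bound by ETS factors such as PU.1.
*Mmp8* (chr9:7558179-7558428): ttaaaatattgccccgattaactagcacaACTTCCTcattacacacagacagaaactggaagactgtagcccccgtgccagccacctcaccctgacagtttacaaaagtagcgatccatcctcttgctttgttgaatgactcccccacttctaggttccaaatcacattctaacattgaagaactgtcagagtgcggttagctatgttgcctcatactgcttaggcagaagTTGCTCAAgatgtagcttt
*Retnlg* (chr16:48872358-48872607): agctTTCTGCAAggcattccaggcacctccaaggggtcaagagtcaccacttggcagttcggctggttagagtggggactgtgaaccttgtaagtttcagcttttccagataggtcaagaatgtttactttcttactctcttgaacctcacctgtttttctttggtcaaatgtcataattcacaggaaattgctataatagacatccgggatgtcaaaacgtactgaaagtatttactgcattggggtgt
*Clec4d* (chr6:123261857-123262106): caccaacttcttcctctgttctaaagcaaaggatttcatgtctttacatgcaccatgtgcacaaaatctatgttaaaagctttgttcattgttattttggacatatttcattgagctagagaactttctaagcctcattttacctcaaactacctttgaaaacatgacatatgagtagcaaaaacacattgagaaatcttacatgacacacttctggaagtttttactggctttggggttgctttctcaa
TTGCNNAA occurred in 3 of the 5 members (*Mmp8*, *Retnlg* and *Adam8*) and in 9.56% of the 32851 RefSeq promoters of the same length. AGGAAGT occurred in *Mmp8* alone among the 5, against 7.69% of all promoters, and TATAAA, the TATA box, in 0 of the 5, against 12.4%. The windows of *Clec4d* and *Mmp25* held none of the 3 motifs. A match is a match of letters only.

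The matrices held 10869 control, 8362 young and 10597 old cells, with 108985799, 81434722 and 138030352 UMIs. The medians were 9560, 9720 and 13039 UMIs per cell, so old cells were deeper. Between 120 and 161 cell barcodes were shared by any pair of libraries, at most 1.52% of a library. Removing cells by the mitochondrial limit, by the 5th and 95th percentile of UMIs (3648 to 19252) and by markers of other blood cells (83 control, 693 young and 81 old cells set aside) left 9737, 6763 and 9481 cells, called trimmed cells here. The labels call the cells endothelial-like, but the 7 endothelial markers tried summed to 7.99, 9.24 and 8.98 UMIs per 1000000 (CPM) in control, young and old trimmed cells, and *Cdh5*, their defining marker, had 1, 23 and 0 UMIs. Neutrophil genes were abundant instead, with the specific granule gene *Ngp* at 55494, 52540 and 53629 CPM. Monocyte markers (9 genes) summed to 9.13, 41.3 and 16.8 CPM and stem and progenitor markers (8 genes) to 10.9, 29.8 and 5.62 CPM, so the young library kept the most RNA of other marrow cells, and their part in the results was not tested.

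Trimming by depth touched the members directly, because the cells in which they were highest were small. In cells below 3648 UMIs *Retnlg* stood at 8825, 19788 and 21076 CPM in control, young and old, against 420, 887 and 1736 CPM in trimmed cells. The lower limit removed 658 control, 615 young and 106 old cells that were otherwise kept, and with them 30.0%, 38.2% and 3.39% of all *Retnlg* UMIs and 27.9%, 34.7% and 1.48% of all *Mmp8* UMIs. The limit thus took far more of the members' RNA out of the control and young libraries than out of the old one. For this reason the members' levels over whole libraries are given with and without it, and the *Mpo* bands and the detection in single cells, which were taken in trimmed cells, have their main values without it beside them. The matrices themselves held no cells below 2601 (control), 2661 (young) and 3117 (old) UMIs. Values without the limits may therefore still lack small cells unequally, most in old.

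RNA of the members was also found in cells that should lack them. Among cells set aside in the young library, 175 carried B or NK/T cell markers, and *Retnlg*, which lymphocytes should lack, was found at 539 CPM in them, *Mmp8* at 43.8 CPM and *Mmp9* at 43.8 CPM. At a depth thinned to 3000 UMIs per cell, 70.0% of these cells had a *Retnlg* UMI, 7.999% an *Mmp8* UMI and 10.1% an *Mmp9* UMI, at a median depth of 7911 UMIs before thinning. Young trimmed cells with the most *Mpo* (a median of 12165 UMIs) had 63.6%, 6.13% and 5.91%, at or below those shares. In young, low levels of these 3 genes in *Mpo*-high cells are therefore not read as expression. Only 15 control and 5 old cells were marked in this way, too few to give such a level for those libraries. No doublet caller was run, and whether the RNA came from free RNA or from droplets with 2 cells was not tested.

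Across whole libraries, 5 of the 6 members were highest in the old library, and *Clec4d* was not. In trimmed cells *Mmp8* was at 36.7 (35.5 to 37.9), 88.7 and 180.8 CPM in control, young and old, and *Mmp9* at 51.0, 78.7 and 145.8 CPM. *Retnlg* was at 420, 887 and 1736 CPM. These 3 genes shared the order control, young, old, with intervals that did not overlap. *Adam8* was at 7.24, 7.51 and 17.9 CPM and *Mmp25* at 3.23, 3.34 and 6.56 CPM, and for both the control and young intervals overlapped. *Clec4d* was at 3.80, 7.81 and 6.82 CPM, so that young and old lay close together and control below them.

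As log2 ratios of old over young, the trimmed values were 1.03 (0.99 to 1.07) for *Mmp8*, 0.89 (0.85 to 0.93) for *Mmp9*, 0.97 for *Retnlg*, 1.25 (1.11 to 1.39) for *Adam8*, 0.97 (0.76 to 1.19) for *Mmp25* and -0.19 (-0.35 to -0.03) for *Clec4d*. Without the UMI limits they were 0.35, 0.38, 0.24, 0.82, 0.75 and -0.54. *Retnlg*, *Mmp8* and *Mmp9* thus lost most of the difference once cells beyond both UMI limits were counted, *Adam8* and *Mmp25* lost less, and *Clec4d* was clearly lower in the old library (-0.68 to -0.40). These cells were small ones and also large ones, with 207 young and 924 old cells above the upper limit. The parts of small and large cells were not separated. Over all genes tested the median log2 ratio was -0.09 with the limits and -0.06 without them. The control library, which shares its labelled age with the young one, was itself lower than young by 1.27 on the log2 scale for *Mmp8* (log2 ratio -1.27, -1.33 to -1.21), and the log2 ratios were -1.08 for *Retnlg*, -1.04 for *Clec4d* and -0.63 for *Mmp9*. For *Mmp25* (-0.05, -0.30 to 0.20) and *Adam8* (-0.05, -0.22 to 0.11) the interval held 0. In trimmed cells, libraries of one labelled age therefore differed by as much as old and young did for *Mmp8*, *Retnlg* and *Clec4d*. For *Adam8*, *Mmp25* and *Mmp9* the difference of old and young was larger than that between control and young. Without the UMI limits this did not hold for *Mmp9*. It was then lower in control than in young by more than 1.5 times, and its old over young difference was below 1.5 times. Old over control gave log2 ratios of 2.30 for *Mmp8*, 2.05 for *Retnlg*, 1.52 for *Mmp9*, 1.30 for *Adam8*, 1.02 for *Mmp25* and 0.84 for *Clec4d*, and 1.80, 1.53, 1.21, 1.05, 0.92 and 0.47 without the limits.

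To set the members beside all genes, genes that reached 10 CPM in at least 1 of the 2 libraries compared were counted as higher or lower past 1.5 times. In old over young 4 of the 6 members could be counted, *Mmp8*, *Mmp9*, *Retnlg* and *Adam8*, and 4 were past the limit upwards, where 4.98% of 5606 genes were (10.8% downwards). *Mmp25* and *Clec4d* stayed under 10 CPM. Without the UMI limits 5 members could be counted and 1, *Adam8*, was past the limit upwards and 0 downwards, beside 4.5% of all genes upwards and 9.46% downwards. In old over control the same 4 members were past it upwards in trimmed cells, beside 5.38% of all genes (9.6% downwards), and without the UMI limits, beside 5.11% (8.51% downwards). In control over young 3 could be counted and all 3 were lower past the limit, beside 3.99% of all genes (2.78% higher). Without the UMI limits 4 of 4 were lower, *Clec4d* included, beside 4.17% (3.28% higher). With the limit set at 2 times, 2 of 4 members were higher in old over young, beside 2.12% of all genes (3.03% lower), 4 of 4 were higher in old over control, beside 1.96% (1.81% lower), and 2 of 3 were lower in control over young, beside 1.84% (0.466% higher). At a minimum of 50 CPM the 3 members left, *Mmp8*, *Mmp9* and *Retnlg*, were past 1.5 times in each comparison. They were higher in old over young beside 6.05% of all genes (5.28% lower), higher in old over control beside 5.21% (6.64% lower), and lower in control over young beside 3% (2.74% higher).

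**Figure D1:**
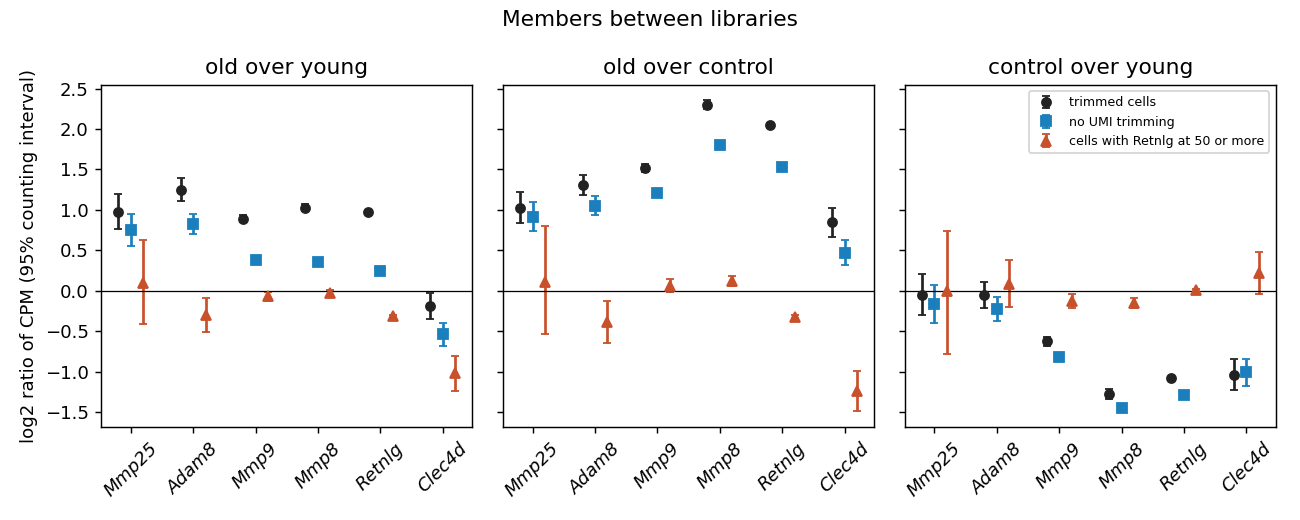
Log2 ratio of CPM between libraries for the 6 members (y axis), in trimmed cells, in cells without UMI trimming and in cells with *Retnlg* at 50 or more per 10000 UMIs. Bars are 95% counting intervals, each library is 1 sample, and old over young moves from 1.03 to 0.35 for *Mmp8* when cells beyond the UMI limits are counted.

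The libraries differed in the share of cells with high *Retnlg*, and less in the pooled level of the collagenase and gelatinase over such cells. When no UMI limit was set, the share among the cells in the matrices was lower in control, and young and old were close. Cells with at least 50 *Retnlg* UMIs per 10000, a value chosen after the data were seen, were then counted. They were 347 of 10746 control cells (3.23%), 648 of 7508 young cells (8.63%, 8.01 to 9.29) and 1004 of 10499 old cells (9.56%, 9.01 to 10.1). At 200 or more, also with no UMI limit, the shares were 1.57%, 4.71% (4.25 to 5.22) and 4.05% (3.68 to 4.44), so old was not above young. In trimmed cells the shares at 50 or more were 1.96%, 4.54% and 9.97%. Between 48 and 209 cells per library lay near the value of 50, at 40 to 60. Within cells at 50 or more, *Mmp8* was at 1793, 1992 and 1949 CPM and *Mmp9* at 1007, 1103 and 1051 CPM in control, young and old, and *Mmp25* was at 14.9, 14.9 and 16.0 CPM. The old over young log2 ratios were -0.03 (-0.08 to 0.01) for *Mmp8*, -0.07 (-0.13 to -0.01) for *Mmp9* and 0.10 (-0.41 to 0.63) for *Mmp25*, where the intervals cover counting error in these libraries only. Within narrower bands of *Retnlg* the differences went both ways. *Mmp9* had an old over young log2 ratio of 0.45 (0.32 to 0.57) at 50 to 100 and of -0.37 (-0.51 to -0.22) at 400 and above, and *Mmp8* had 0.25 (0.15 to 0.35) and -0.11 (-0.22 to -0.01) in the same bands. *Adam8*, pooled over cells at 50 or more, was lower in old, at 98.1, 92.3 and 74.9 CPM (-0.30, -0.51 to -0.09). By band it was lower in old than in young at 200 to 400 (-0.51, -0.90 to -0.11) and at 400 and above (-0.65, -1.16 to -0.13). At 50 to 100 and at 100 to 200 the interval held 0. In the bands below 20 it was higher in old, with log2 ratios of 0.95 (5 to 20), 0.93 (2 to 5) and 0.93 (below 2).

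*Clec4d* differed within cells with *Retnlg* at 50 or more, at 128 (111 to 147), 110 (98.1 to 122) and 54.1 (48.9 to 59.7) CPM in control, young and old. Old was below young by a log2 ratio of -1.02 (-1.23 to -0.80) and below control by -1.24 (-1.49 to -0.99), whereas control over young was 0.22 (-0.04 to 0.48). In cells grouped more finely by *Retnlg*, *Clec4d* was lower in old than in young in each of the 4 bands from 50 upwards, with log2 ratios of -1.44 (50 to 100), -1.12 (100 to 200), -0.47 (200 to 400) and -0.49 (400 and above) and intervals below 0 in each. Old cells with *Retnlg* at 50 or more had a median of 6580 UMIs, against 3814 in control and 3600 in young, so depth moved with this difference and its part was not tested. Monocyte markers summed to 13.04, 70.7 and 30.8 CPM in these control, young and old cells. They were lower in old than in young, as *Clec4d* was, and lowest in control, where *Clec4d* was not. Their part in the *Clec4d* level was not tested.

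Along falling *Mpo*, in trimmed cells, 5 members went from low to high while *Clec4d* did not. Trimmed cells were placed in 7 bands of *Mpo* UMIs per 10000 UMIs of the cell, from 50 and above (1295 control, 1229 young and 812 old cells) to below 1 (498, 561 and 871 cells). *Mpo* itself ran from 8573, 9755 and 7593 CPM in the highest band to 36.6, 39.9 and 49.1 CPM in the lowest, and *Ltf* from 621, 602 and 865 CPM to 7633, 8327 and 9389 CPM.

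*Mmp8* was at 8.23 to 25.8 CPM in the 3 libraries at *Mpo* of 50 and above and at 101, 169 and 292 CPM below 1, in control, young and old. Cells below 5 exceeded cells at 50 and above by 5.88 times in control (4.94 to 7.05), 4.69 times in young and 9.50 times in old (8.48 to 10.7). *Mmp9* was at 12.0, 20.6 and 24.3 CPM in the highest *Mpo* band and at 102, 152 and 231 CPM in the lowest. Its excess of cells below 5 over cells at 50 and above was 5.64, 4.84 and 8.16 times. In cells of every depth in the matrices the values were 7.71 (6.52 to 9.16), 6.56 (5.90 to 7.32) and 8.01 (7.31 to 8.81) times for *Mmp8* and 6.33, 6.06 and 6.84 times for *Mmp9*. The steeper course of the old library in trimmed cells was thus smaller without the limits, where the intervals of old and control overlapped for both genes.

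*Adam8* went from 1.47, 2.14 and 2.07 CPM to 13.1, 13.3 and 30.0 CPM between the same bands. *Mmp25* went from 0.614, 0.345 and 1.55 CPM to 5.09, 4.65 and 9.23 CPM, on only 10, 5 and 18 UMIs in the highest *Mpo* band. *Retnlg* went from 157, 404 and 390 CPM to 1010, 1635 and 2806 CPM, the smallest relative change of the 5 in young, 2.56 times between cells at 50 and above and cells below 5. Both *Retnlg* and *Mmp8* were higher in the young 5 to 10 band (1298 and 139 CPM) than in the 1 to 2 band (710 and 79.6 CPM), so that the course was not monotonic in young and control, whereas in old each band below 10 was at or above the one before for *Mmp8* and *Mmp9*.

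The first band with at least 2 times the level of the highest *Mpo* band, held in every later band, was 10 to 20 for *Mmp8*, *Mmp9*, *Mmp25* and *Adam8* in control and young. In old it was 10 to 20 for *Mmp25* and *Adam8*, and 5 to 10 for *Mmp8*, *Mmp9* and *Retnlg*. *Retnlg* reached it at 10 to 20 in control and only below 1 in young. In young, *Retnlg* stood at 404 CPM in the highest band, 768 CPM at 10 to 20, 1298 CPM at 5 to 10 and 710 CPM at 1 to 2. Its late band in young came from that dip and is not read as a later onset. By this rule *Mpo* did not separate the 4 proteases in control and young, and in old it put *Mmp25* and *Adam8* 1 band ahead of the other 3. The rule divides by the highest *Mpo* band. In old that band held *Mmp8*, *Mmp9* and *Retnlg* at 25.8, 24.3 and 390 CPM. *Mmp25* and *Adam8* had 18 and 24 UMIs there (1.55 and 2.07 CPM). RNA in cells that should lack it may raise such a base, and its part was not tested. The 1 band is therefore not read as an earlier onset. *Clec4d* met the rule in no band of any library.

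**Figure D2:**
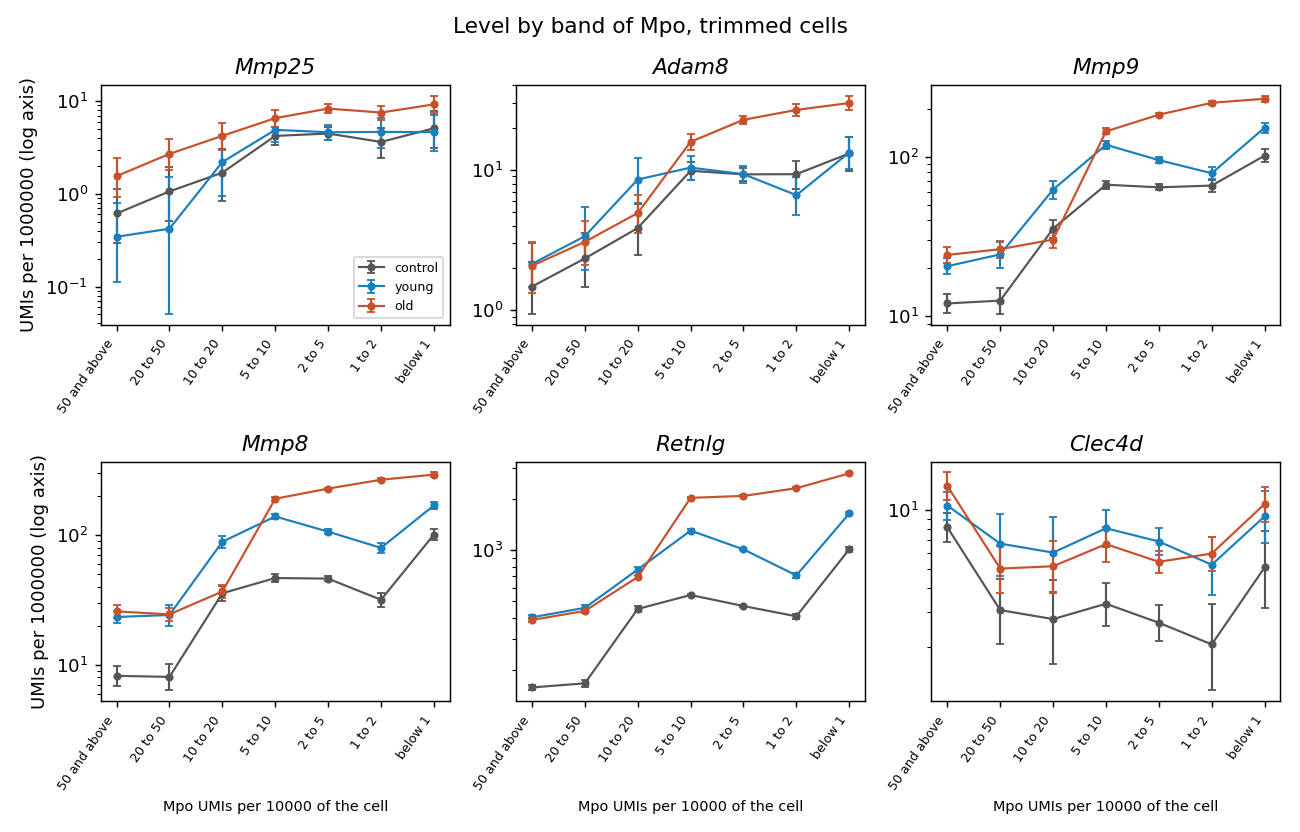
CPM of each member (log axis) in trimmed cells by band of *Mpo* per 10000 UMIs, from the highest band on the left to the lowest on the right, for the 3 libraries, with 95% Poisson intervals. For 5 members the points climb to the right, for *Clec4d* the highest point of each library is on the left, at 8.17, 10.5 and 13.3 CPM in control, young and old.

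In trimmed cells *Clec4d* was highest at the promyelocyte end in each library. It was at 8.17 (6.84 to 9.68), 10.5 (8.94 to 12.4) and 13.3 (11.3 to 15.6) CPM in cells at 50 and above, and at 2.76, 6.92 and 6.26 CPM below 5. The log2 ratio of low over high *Mpo* was -1.56 (-1.92 to -1.20) in control, -0.61 (-0.91 to -0.31) in young and -1.09 (-1.35 to -0.81) in old, against 1.36 to 3.75 for the other members. With no UMI limits it was -1.22 (-1.53 to -0.90), -0.14 (-0.41 to 0.13) and -1.20 (-1.43 to -0.96), so that in young the interval then held 0. The lowest *Mpo* band alone then had *Clec4d* at 9.07, 17.0 and 10.5 CPM, against 8.57, 10.6 and 13.9 CPM at 50 and above, and so was higher in young. Of its UMIs in trimmed cells, 65.1% (60.1 to 70.0), 54.6% (50.3 to 58.9) and 43.9% (40.4 to 47.4) came from cells with 5 or more *Mpo*, where the other members had 35.0% to 42.2% in control, 28.9% to 40.2% in young and 15.6% to 23.1% in old. Such cells held 52.1%, 48.7% and 38.8% of all UMIs, so *Clec4d* was above that share and the others below it in trimmed cells. Without the UMI limits young *Clec4d* was at 51.8% (48.1 to 55.4) beside 49.5% of all UMIs, with cells weighted equally old *Clec4d* was at 34.6% beside 35.2% of cells, and with the sum of 4 azurophil genes in place of *Mpo* young and old *Clec4d* were at 48.0% and 37.2% beside 49.4% and 40.8% of all UMIs, so that it did not stand above the share there.

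The lower UMI limit removed 156 of 347 control, 338 of 648 young and 43 of 1004 old cells with *Retnlg* at 50 or more. *Clec4d* was high in these latest cells too. Without the limits, 38.1%, 44.7% and 41.5% of its UMIs were in cells with *Retnlg* at 50 or more, and 30.5%, 22.4% and 23.3% in cells with *Mpo* at 50 or more. It was thus found in *Mpo*-high and in *Retnlg*-high cells, which were taken on different axes. On the *Retnlg* axis it was lowest at 2.06 and 5.01 CPM in control and young cells with 2 to 5 *Retnlg* per 10000. In old it was lowest at 2.87 CPM, in cells with 5 to 20. The band below 2 had 3.62, 5.96 and 6.65 CPM in control, young and old, so the dip in young was small. Whether the low level in young was expression was not tested. At the *Mpo* end there were 52.0, 26.1 and 34.1 *Clec4d* UMIs per 1000 *Retnlg* UMIs in control, young and old, against 8.91, 7.34 and 4.27 over all untrimmed cells and 10.6 (4.84 to 20.1) in the young B or NK/T-marked cells. For *Mmp8* the same ratio was 52.4, 57.8 and 66.2 at the *Mpo* end and 83.8, 93.3 and 101 over all cells.

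Monocyte markers were higher at the *Mpo* end too, at 23.8, 59.2 and 39.1 CPM in cells at 50 and above and at 5.19, 35.6 and 13.03 CPM below 5, and monocyte-marked cells that had been set aside held *Clec4d* at 14.0, 10.4 and 23.3 CPM. Within the cells at 50 and above, the 116, 132 and 136 cells with a *Clec4d* UMI had monocyte markers at 31.1, 57.2 and 45.7 CPM and the other 1179, 1097 and 676 cells at 23.0, 59.5 and 37.7 CPM. The monocyte marker *Csf1r* was at 0, 3.01 and 0.497 CPM in the cells with a *Clec4d* UMI. In the other cells it was at 0.410, 2.41 and 0.731 CPM. *Ms4a6c* was at 6.71, 22.3 and 8.45 CPM with a *Clec4d* UMI and at 4.71, 21.5 and 9.30 CPM without. *Ccr2* was at 1.22, 0.602 and 2.49 CPM with and at 0.819, 4.20 and 0.522 CPM without, so the markers went both ways. The part of monocyte-fated cells in the *Clec4d* level was not tested.

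When cells were placed by division instead of *Mpo*, the 4 proteases had the same order in all 3 libraries, *Mmp25*, *Adam8*, *Mmp9* and then *Mmp8*. For each member, the cycling level at the middle of its UMIs was found, that is the UMI-weighted median of 10 cycling genes per 10000 UMIs over trimmed cells. It was 17.7, 16.8 and 11.8 for *Mmp25*, 7.24, 5.51 and 4.57 for *Adam8*, 5.26, 4.50 and 3.36 for *Mmp9* and 4.15, 3.56 and 3.13 for *Mmp8* in control, young and old. *Ltf*, of the specific granules, was at 16.0, 17.4 and 10.8, close to *Mmp25*. The same order was seen for the size of the cells, with medians of 9505, 9180 and 12710 UMIs for *Mmp25*, 7846, 7273 and 10514 for *Adam8*, 6589, 5841 and 8912 for *Mmp9* and 5131, 5221 and 7892 for *Mmp8*. Both orders were the same without the UMI limits. RNA of *Mmp8* and *Mmp9* in cells that should lack it may weigh on such medians, and its part was not tested.

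In cells below 5 *Mpo*, *Mmp8* was at 10.6, 25.1 and 31.4 CPM where the cycling genes stood at 20 or more per 10000, and at 330, 624 and 698 CPM where they stood below 1. *Mmp9* went from 34.7, 41.8 and 53.3 CPM to 279, 443 and 504 CPM and *Adam8* from 6.57, 4.57 and 13.3 CPM to 42.7, 47.8 and 56.1 CPM. *Mmp25* went from 4.57, 4.52 and 7.30 CPM to 11.2, 8.25 and 11.8 CPM only. All of them were higher in cells with few cycling transcripts, *Mmp25* by the least.

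*Retnlg* gave a finer scale for the last steps, since it ran from below 2 to above 400 per 10000 UMIs. Cells of every depth in the matrices were kept here, in 8 bands, with 91 control, 164 young and 134 old cells at 400 and above. The cycling genes summed to 1555, 1572 and 1654 CPM in the lowest band and to 284, 364 and 366 CPM in the highest. *Retnlg* sets the axis, so its own course is no result.

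The order of *Mmp9*, *Adam8* and *Mmp8* along this axis depended on the measure. Between 2 to 5 and 20 to 50 *Retnlg* per 10000 *Mmp9* went from 38.0, 33.2 and 31.7 CPM to 577, 605 and 504 CPM, and it ended at 1409, 1564 and 1213 CPM at 400 and above. *Mmp8* went from 13.2, 20.3 and 22.9 CPM to 742, 854 and 532 CPM over the same step, and levelled off between 200 to 400 (2500, 2815 and 2633 CPM) and 400 and above (2831, 2763 and 2558 CPM). In the step before, 5 to 20, *Mmp9* was already at 12.8% of its maximum in control against 3.42% for *Mmp8*, and it was at 5.62% against 2.36% in young and 7.46% against 2.17% in old. *Adam8* was at 14.0%, 5.78% and 17.4% of its maximum in that step. At 20 to 50, however, young *Adam8* was at 23.7% against 30.3% for *Mmp8*, and it reached 50% of its maximum 1 band later than *Mmp8* in young. Taken as a multiple of the lowest *Retnlg* band, *Mmp8* was ahead of *Mmp9* at 5 to 20 in control (11.4 against 6.99 times) and young (3.45 against 2.66) and behind it in old (2.83 against 3.14).

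Among the members other than *Retnlg*, *Clec4d* was last to reach 50% of its maximum, in control in the same band as *Mmp25*. In young it reached 10% in the 20 to 50 band, as *Mmp8*, *Mmp9* and *Adam8* did. *Clec4d* was at 13.001, 29.5 and 5.70 CPM in the 20 to 50 band, at 72.0, 68.0 and 31.3 CPM in the 100 to 200 band and at 345 (283 to 417), 274 (231 to 322) and 195 (161 to 233) CPM at 400 and above. Between the last 2 bands it changed from 167, 136 and 97.5 CPM to these values, while *Mmp8* and *Mmp9* stayed nearly level. *Adam8* too was highest in the last band, at 164, 147 and 94.1 CPM. It was at 57.2, 34.9 and 41.3 CPM in the 20 to 50 band and at 128, 124 and 87.2 CPM at 200 to 400. *Mmp25* had only 9, 12 and 5 UMIs in the last band, and its order there cannot be given.

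**Figure D3:**
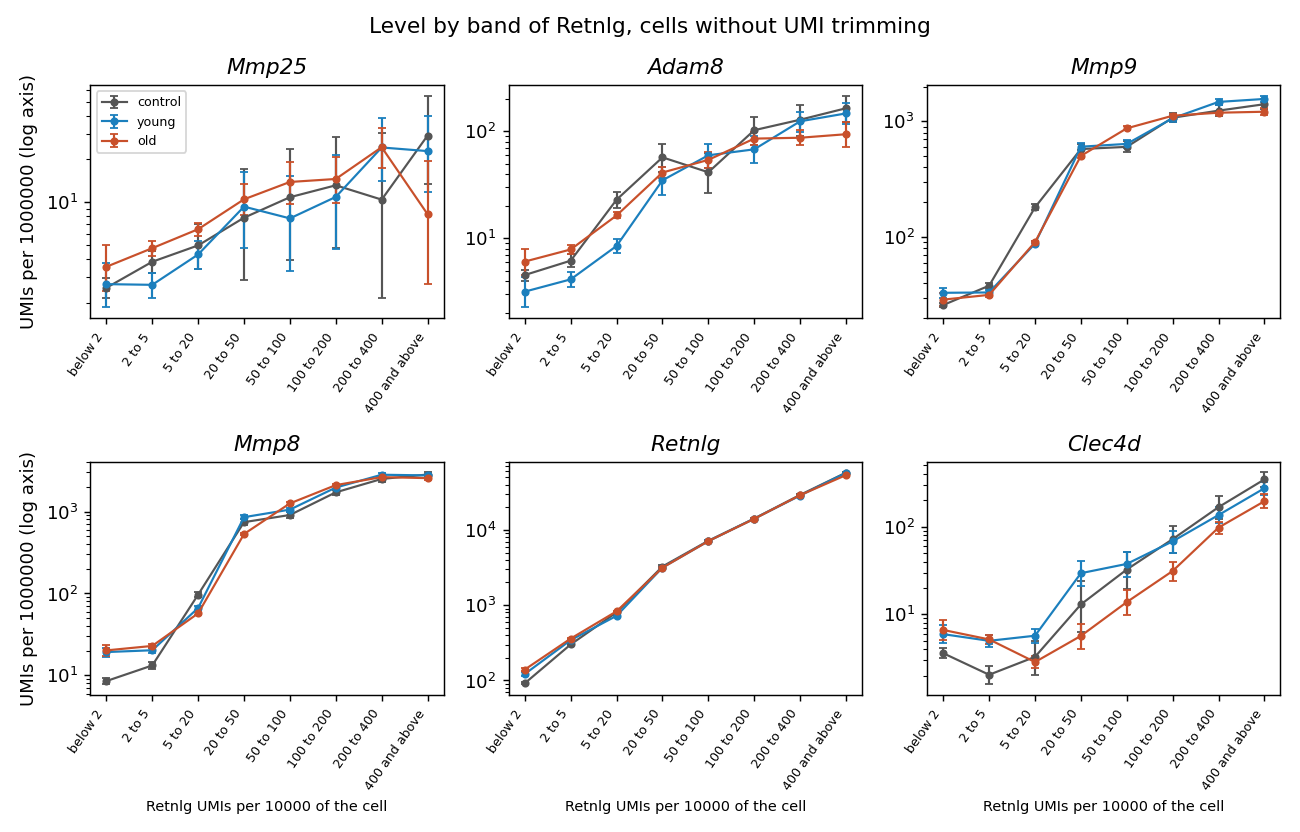
CPM of each member (log axis) by band of *Retnlg* per 10000 UMIs, lowest band on the left, in cells without UMI trimming, with 95% Poisson intervals for the 3 libraries. *Mmp9* and *Mmp8* flatten at the right, whereas *Clec4d* is still climbing, to 345, 274 and 195 CPM in control, young and old, and the old line lies lowest from 50 upwards.

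In single cells most cells with *Mmp8* also had *Mmp9*. With each cell thinned to 3000 UMIs, 6.45%, 12.8% and 20.98% of trimmed control, young and old cells had an *Mmp8* UMI, and 12.9%, 17.9% and 26.5% an *Mmp9* UMI. Of the cells with *Mmp8*, 58.1%, 60.9% and 70.0% also had *Mmp9*, whereas 29.0%, 43.6% and 55.5% of the cells with *Mmp9* also had *Mmp8*. With large cells and small cells of at least 3000 UMIs included the shares were 64.1%, 68.8% and 68.5%, and 33.6%, 52.0% and 54.9%. Both genes met in one cell 4.50, 3.41 and 2.64 times as often as the product of their shares gives. Cells with *Mmp9* alone were thus common and cells with *Mmp8* alone less so. That gap is set by the single shares, which depend on how many molecules each gene has per cell, so it cannot show nesting.

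Of the 5 members other than *Retnlg*, 81.5% of control, 74.2% of young and 63.3% of old cells showed none, and 4.81%, 9.09% and 16.7% showed 2 or more (5.87%, 12.2% and 16.0% without the UMI limits). Where 1 was found it was *Mmp9* in 61.2%, 54.9% and 52.4% of cells and *Mmp8* in 18.3%, 27.8% and 28.1%. Where 2 were found, *Mmp9* was among them in 93.9%, 94.4% and 94.2% and *Mmp8* in 77.2%, 86.7% and 88.9%. *Adam8* was found in 10.4%, 5.70% and 10.7% of cells with 1 member, in 60.8%, 58.7% and 60.3% of cells with 3 and in 86.5%, 83.1% and 87.3% of cells with 4. *Clec4d* was in 4.62%, 7.39% and 3.59%, in 29.9%, 34.0% and 29.8%, and in 83.6%, 85.5% and 79.2% of the same cells, and *Mmp25* in 30.0%, 31.6% and 33.6% of those with 4. In cells with 2 members, *Adam8* was found in 19.5%, 9.85% and 11.3% and *Clec4d* in 4.05%, 5.44% and 2.02%. By detection *Mmp9* thus came before *Mmp8* in each library. *Adam8* was ahead of *Clec4d* at 1, 2, 3 and 4 members in control and old, and in young at 2 and 3 but not at 1 and 4. Such an order also depends on the level of each gene and need not be one in time. The cells were grouped by these same genes, so the shares within a group are bound to each other. Cells with 4 members were few, 15.9 in control, 18.0 in young and 51.6 in old by expectation after thinning.

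Cells with 2 or more of the 5 were 0.465%, 1.47% and 1.51% of cells at 50 and above *Mpo* and 10.9%, 16.7% and 25.3% of cells below 1. In old, the share went from 3.20% in the 10 to 20 band to 17.9% in the 5 to 10 band. In young it was 9.96% and 13.7% in these bands, and in control 4.49% and 6.28%. The old library thus had its largest step at the passage from 10 to 20 to 5 to 10. *Mmp8* and *Mmp9* are the genes most often found in such cells. The step is therefore the rise of these genes counted again and no separate result.

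Over all 15 pairs of members the co-detection exceeded the product of shares in each library. For the 10 pairs without *Retnlg* the ratio was 2.14 to 6.05 in control, 1.86 to 4.06 in young and 1.52 to 3.19 in old. *Clec4d* was with *Mmp8* in 39.0%, 41.7% and 66.8% of the cells in which it was found. The pair with the highest ratio was *Mmp8* and *Clec4d* in control and old, and *Mmp8* and *Adam8* in young.

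**Figure D4:**
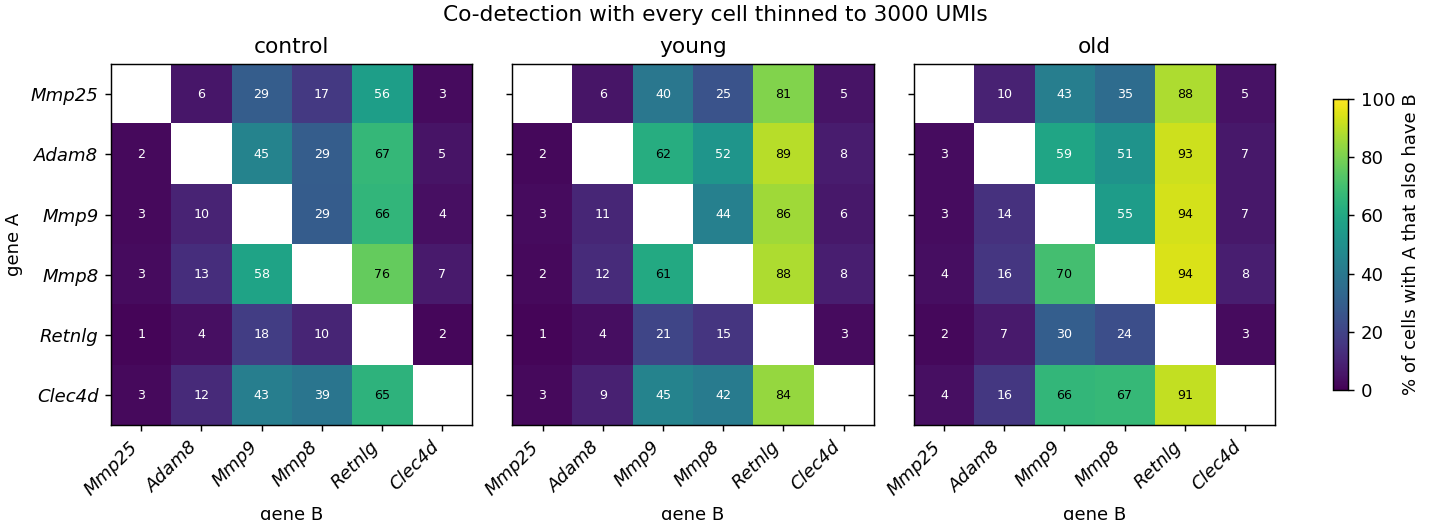
Share of cells with gene A (rows) that also have gene B (columns), in percent, for control, young and old trimmed cells with every cell thinned to 3000 UMIs. Reading across the *Mmp8* row, 58.1%, 60.9% and 70.0% had *Mmp9*, and down the *Mmp8* column 29.0%, 43.6% and 55.5% of cells with *Mmp9* had *Mmp8*.

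Other genes of late neutrophils, a list of 31, were set beside the members. In old over young 28 could be counted, of which 10 were higher and 2 lower past 1.5 times, beside 4.98% and 10.8% of all genes. The median log2 ratio was 0.42, beside -0.09 for all genes. In old over control 13 of 28 were higher and 0 lower, beside 5.38% and 9.6% of all genes. In control over young 1 of 26 was higher and 3 were lower, beside 2.78% and 3.99%. The largest ratios were those of *Prok2*, which codes for a secreted chemokine-like peptide, at 2.15 CPM in young and 37.8 CPM in old (log2 ratio 4.13, 3.90 to 4.38), and *Asprv1*, a skin and neutrophil protease, at 6.41 and 78.0 CPM (3.60, 3.46 to 3.74). *Lrg1*, a secreted leucine-rich glycoprotein, was at 412 and 1436 CPM (1.80), but control was also above young for it (0.82). In control, *Prok2* was at 3.11 CPM and *Asprv1* at 3.08 CPM. *Ccl6*, a CC chemokine, was at 8.13 CPM in control, 46.3 CPM in young and 30.7 CPM in old. For *Fpr1*, a receptor of formylated peptides, the levels were 5.48, 10.7 and 34.6 CPM.

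The specific granule genes, whose granules come before gelatinase granules in the order given at the start, had counts near those of all genes in old over young. Of 10 listed, 9 could be counted, and 0 were higher and 1 was lower past the limit, beside 4.98% and 10.8% of all genes. The 1 lower was *Camp*, the cathelicidin precursor, at 57374 CPM in young and 37425 CPM in old (-0.62). *Ltf* had a log2 ratio of 0.20 and *Lcn2*, lipocalin 2, one of 0.56. In old over control 0 of 9 passed in either direction, beside 5.38% of all genes higher and 9.6% lower. In control over young 1, *Orm1*, an acute-phase glycoprotein, was higher (0.61), beside 2.78% of all genes (3.99% lower). The azurophil list had 1 of 8 higher and 3 lower in old over young, and the cycling list 0 of 10 in either direction, beside the same 4.98% and 10.8%. With the 7 *Mpo* bands weighted equally the azurophil list had 3 of 8 higher and 0 lower (median log2 ratio 0.31 against -0.10 before), beside 5.05% of all genes higher and 7.88% lower. In old over young these lists had the same counts without the UMI limits, other than 2 of 8 azurophil genes higher. All genes were then 4.5% higher and 9.46% lower.

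Among 9 partners of the proteases, 4 could be counted. *Timp2*, a tissue inhibitor of metalloproteases, was at 5.79, 8.19 and 20.8 CPM in control, young and old (old over young 1.35, 1.21 to 1.48), and *Reck*, a membrane-anchored inhibitor of MMP9, at 15.8, 10.1 and 18.4 CPM (0.86). *Cd44*, a docking site of MMP9 on the cell surface, was lower in old than in young, at 53.9 against 81.9 CPM (-0.60). Of the 20 other MMP genes 0 reached 10 CPM in any library and 8 had 0 UMIs, and of 32 other ADAM genes 2 reached it. The other resistin-like genes were near the floor, with *Retn* at 0.896, 1.098 and 1.97 CPM. Among 10 other *Clec4* genes, *Clec4e*, the neighbour of *Clec4d* and its partner receptor (Mincle), was at 16.9, 12.5 and 43.1 CPM and so highest in old (1.78, 1.68 to 1.89), unlike *Clec4d*. *Clec4b2* was lower in old, at 27.5, 33.8 and 7.57 CPM.

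Over the 21 combinations of library and *Mpo* band, 5 members had like profiles and *Clec4d* had its own. Pearson's r of log2(CPM + 1) was 0.83 to 0.98 among the 10 pairs of the 5, and -0.08 to 0.30 between *Clec4d* and each of them. The points share libraries and depth, and r is given as a description. Among 6839 genes, those closest to the mean profile of the members were *Sh3glb1* (0.99), *Tmsb10* (0.97), *Slfn1* (0.97), *Fpr1* (0.97) and *Plek* (0.97). *Mmp8* was closest to *Retnlg* (0.98), *Mmp9* to *Plek* (0.98), *Adam8* to *Mmp9* (0.97), *Mmp25* to *AA467197* (0.98) and *Clec4d* to *Glipr1* (0.89).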

How the data were processed

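CD133+ bone marrow cells of 3 libraries (young, old and control, 3 pooled mice each) were analysed. The authors' files are deposited as whole UMI counts per gene and cell, without normalization. The submitters' processing notes name STAR, Cell Ranger 2.1.0 and mm10; whether reads were counted by strand is not given in the sources used here. Of 27998 gene identifiers, 27645 were found in GENCODE M21.

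After the study's methods, cells were removed for fewer than 200 genes, for a mitochondrial share above 20% or for a UMI count beyond the 5th or 95th percentile over all libraries. Cells with at least 3 markers of one other blood cell type, at 2 or more UMIs each, were set aside. No doublet caller was run. UMIs were summed over cells and given per 1000000 UMIs (CPM), and log2 ratios came from these sums. A count of 0 UMIs in trimmed cells allows up to 0.0306 (control), 0.0439 (young) and 0.0259 (old) CPM at 3 counts. Intervals are exact at 95% (Poisson, Clopper-Pearson, conditional binomial). Thinning to 3000 UMIs per cell used the hypergeometric distribution, and the cells in trimmed sets were all deeper. Without the UMI limits, cells under 3000 UMIs could not be thinned to this depth and were left out. The scripts were checked on simulated data. The members and lists were chosen with earlier results of these data known. The members were always named. Of each list the 3 genes with the largest ratio in a comparison were to be named, and for likeness the 5 closest genes and 1 per member. *Clec4e*, *Clec4b2*, *Retn*, *Cdh5*, *Csf1r*, *Ms4a6c* and *Ccr2* were named after their values were seen. *Retnlg* bands, *Retnlg*-high cells and bands of UMIs were added after the data were seen. The alternatives concerned trimming, setting aside, denominators, band edges and axes, weighting, thinning, limits of size and minimum CPM. The lists of basophil and mast cell, dendritic, eosinophil, erythroid, macrophage and mesenchymal markers summed to 0.328 to 71.3 CPM per library. Protein sequences were not used here. The work used scipy 1.17.1, pandas 2.3.3 and numpy 2.4.6 in Python 3.11.15, with matplotlib 3.10.9 for plots.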

Additional observations from a re-analysis of the deposited data

Results flagged for a closer look

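Cells below the lower UMI limit enter none of the trimmed comparisons, yet held the members at high levels. Their 6 members together stood at 22675 CPM (22464 to 22888) in young and 22685 CPM (22194 to 23183) in old, above the 10158 CPM (10021 to 10296) of such control cells. These were 615 young, 106 old and 658 control cells, with median depths of 3155, 3386 and 3156 UMIs. Most of each sum was *Retnlg*, so it does not stand for each member. Per 1000 *Retnlg* UMIs in such cells, *Mmp8* was at 77.9, 84.6 and 44.1 in control, young and old. *Mmp9* was at 58.8, 51.6 and 25.8.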

How the results depend on the processing

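No paired analysis was possible because each group is 1 library. Over the 6 members, the median log2 ratio of old over young was 0.97, and was 0.51 with percentiles taken in each library, 0.37 without UMI trimming, 1.04 with the upper limit at the 90th percentile, 1.04 with no cells set aside, 1.25 as UMIs per cell and 0.76 with *Mpo* bands weighted equally. Old over control (1.41) was 1.18, 1.13, 1.69 and 1.18 with percentiles in each library, without trimming, as UMIs per cell and with equal bands. Control over young (-0.83) was -0.91 with percentiles in each library and -0.92 without trimming. As UMIs per cell *Clec4d* was 0.08 in old over young, with an interval of -0.08 to 0.24.

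The summed CPM of members (control 522, young 1073, old 2094) was 575, 1295 and 1708 with percentiles in each library, 684, 1628 and 1954 without trimming, 548, 1107 (young, also 1037 with no cells set aside) and 2301 with the 90th percentile, and 790, 1639 and 3147 over totals without 6 granule genes. The median low over high *Mpo* log2 ratio was 2.94 in control with 7 equal azurophil groups (2.53 before) and 2.61 in young with doubled band edges (2.18 before), and without trimming, an alternative chosen after the data were seen, it was 2.51 in young and 2.57 in old (2.77 before). *Clec4d* exceeded the others' share of UMIs at 5 or more *Mpo* by 28.9, 18.3 and 26.8 percentage points in control, young and old, by 39.5 and 24.8 in control and young with the azurophil sum, by 13.1 and 30.9 in young and old without trimming, and by 19.9, 11.2 and 17.3 with cells weighted equally. Co-detection over the product had a median of 2.38, 2.14 and 1.68 thinned and 1.53, 1.39 and 1.19 not thinned.

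Of other late genes, those lower in old over young were 0 at a limit of 2 times and 1 at a minimum of 50 CPM, beside 3.03% and 5.28% of all genes. In old over control 8 were higher at 2 times, beside 1.96%. In control over young 0 were higher and 1 lower at 2 times, beside 0.466% and 1.84%, and 1 was lower at 50 CPM, beside 3%. No directions of these medians changed. The cause of these shifts was not tested, beyond the unequal loss of small cells. Of 93 such values 48 were the same within counting error. The main limits are 1 library per condition, unequal depth of libraries, members' RNA in cells that should lack it, and few UMIs for *Mmp25* and *Clec4d* (228 to 791 in trimmed cells), where small differences were not detectable.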
